A study of Mus musculus with 10 samples.

Results

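Adenosine is a nucleoside that builds up outside cells when ATP is broken down, and it acts on G protein-coupled receptors that tune transmitter release and neuronal firing. In the striatum it opposes dopamine signalling, and its uptake through nucleoside transporters is a known target of ethanol. Its level outside the cell is set by the enzymes that make it from AMP, by equilibrative transporters that carry it across the membrane in either direction, and by the intracellular enzymes that remove it. The 8 genes described here were chosen by name to cover these steps. They were Adora1 and Adora2b (receptors), Slc29a1, Slc29a2 and Slc29a4 (transporters), Nt5e (production), and Adk and Ada (removal). The list does not hold every receptor gene of the family. All 8 were present among the 29883 genes of the count table, and 7 had a mean of at least 100 counts.

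RNA was sequenced from the nucleus accumbens (NAc), a region of the ventral striatum, of 5 C57BL/6J (B6) and 5 DBA/2J (D2) mice. These are inbred strains with contrasting responses to ethanol. All mice were ethanol-naïve males, untreated and 9 weeks of age, and each library came from 1 mouse. The comparison asks which of these genes differ in basal mRNA level between the strains, which differ across the whole genome, so that a difference cannot be assigned to a single locus.

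The libraries held 96977262 to 116776714 counted reads each. The dissected tissue expressed all 10 listed genes of striatal projection neurons. Their summed level was 3736 to 4882 CPM in B6 and 3241 to 3868 in D2. CPM are counts scaled to the library total, with the total adjusted by the TMM scaling of edgeR. B6 replicates 3 and 5 stood apart from the rest. They were also more alike than any other pair of one strain, with a chi-square of 4.89 per gene over 15388 genes beside 17.5 for the next closest pair. They were counted as 2 mice because their labels name different mice. They differed by more than sampling noise, which cannot by itself show that the libraries are independent. In B6 replicates 3 and 5, the summed level of 8 marker genes of cortical projection neurons was 1403 and 1383 CPM. It was 327 to 495 CPM in B6 replicates 1, 2 and 4 and 448 to 909 CPM in the 5 D2 mice. Slc17a7 and Nrgn contributed most to the sum in replicates 3 and 5. Lamp5 went the other way, with 7409 and 7402 normalized counts, the lowest of the B6 mice, whereas the other markers were highest there. None of these 8 genes was at 0 in any mouse, and none passed the test between strains. Each member is therefore given with and without these 2 libraries.

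Across the members, 2 of 8 passed an adjusted p of 0.05 between the strains (quasi-likelihood test of edgeR with TMM scaling, Benjamini-Hochberg adjustment over all 29883 genes). Adk was lower and Adora2b was higher in D2. In the same test 18.3% of all genes were called, 8.50% as higher and 9.83% as lower in D2, so the share of called members was near that of the table. The median log2 fold change of the 8 members was 0.0031, beside 0.0036 for all genes. Counts that did not overlap between the strains were found for 1 member, Adk, and for 16.0% of all genes. Of all genes, 8.63% had every D2 mouse below B6, as Adk did, and 7.39% had every D2 mouse above.

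**Figure D1:**
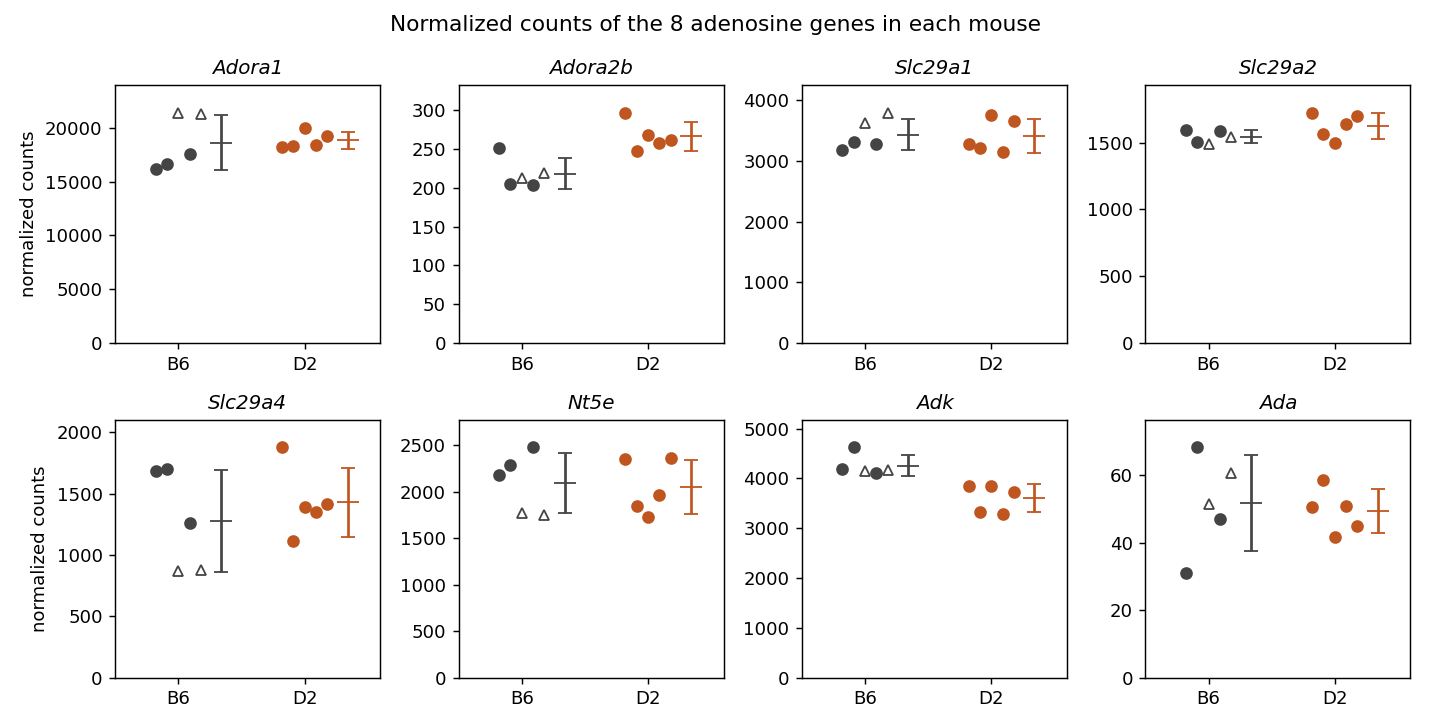
Normalized counts of each member (vertical axes, linear, starting at 0) in the 5 B6 and 5 D2 mice. Points are single mice, horizontal ticks with bars are the mean and SD of each strain, and open triangles are B6 replicates 3 and 5. The D2 mice sit below every B6 mouse for Adk, while the triangles are the highest B6 values for Adora1 and Slc29a1 and the lowest for Slc29a4 and Nt5e.

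The levels of different genes can be compared once they are divided by length. As CPM per kilobase of annotated exon, Adora1 was by far the most abundant member, with 26.9 ± 3.70 in B6 and 27.2 ± 1.13 in D2 (SD, n = 5). Slc29a1 followed with 4.12 ± 0.312 and 4.09 ± 0.332. Then came Adk with 3.45 ± 0.171 and 2.93 ± 0.224 and Slc29a2 with 2.74 ± 0.0844 and 2.88 ± 0.167 on the same scale. The ranges of Adk and Slc29a2 were separate in B6 and overlapped in D2. Nt5e stood at 2.21 ± 0.341 and 2.17 ± 0.309 CPM per kilobase, below Slc29a2 in every mouse of its strain. Slc29a4, with 1.22 ± 0.393 and 1.36 ± 0.265, and Adora2b, with 1.09 ± 0.0989 and 1.33 ± 0.0944, overlapped in both strains. Ada was lowest, at 0.0904 ± 0.0249 and 0.0861 ± 0.0114. The order of the means was thus the same in B6 and D2.

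Adora1 encodes the A1 receptor, which couples to inhibitory G proteins and restrains transmitter release at many brain synapses. In GRCm39 the gene (ENSMUSG00000042429) occupies 134126948 to 134163579 on the reverse strand of chromosome 1. The B6 mice had 16173, 16659, 21442, 17565 and 21347 normalized counts, in replicate order. The D2 mice had 18273, 18287, 20051, 18392 and 19218. The 2 highest values of all 10 were those of B6 replicates 3 and 5, and the other 3 B6 mice were below every D2 mouse. Over all mice the log2 fold change of D2 over B6 was 0.016 (standard error 0.0782, 95% interval -0.15 to 0.19), and it did not pass (adjusted p = 0.929, edgeR).

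Without B6 replicates 3 and 5, Adora1 was higher in D2, with a log2 fold change of 0.16 (standard error 0.0423, adjusted p = 0.0159, edgeR, 3 B6 mice against 5 D2 mice). The summed cortical marker level also differed in that subset, with 4 of 5 D2 mice above all 3 remaining B6 mice. With the mean level of these markers as a covariate and all 10 mice in the fit, the Adora1 difference was -0.022 (95% interval -0.096 to 0.051, adjusted p = 0.702, edgeR). The strain result for this gene therefore changed with the treatment of the 2 libraries, and the part of the cortical marker genes in it was not tested beyond these fits.

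**Figure D2:**
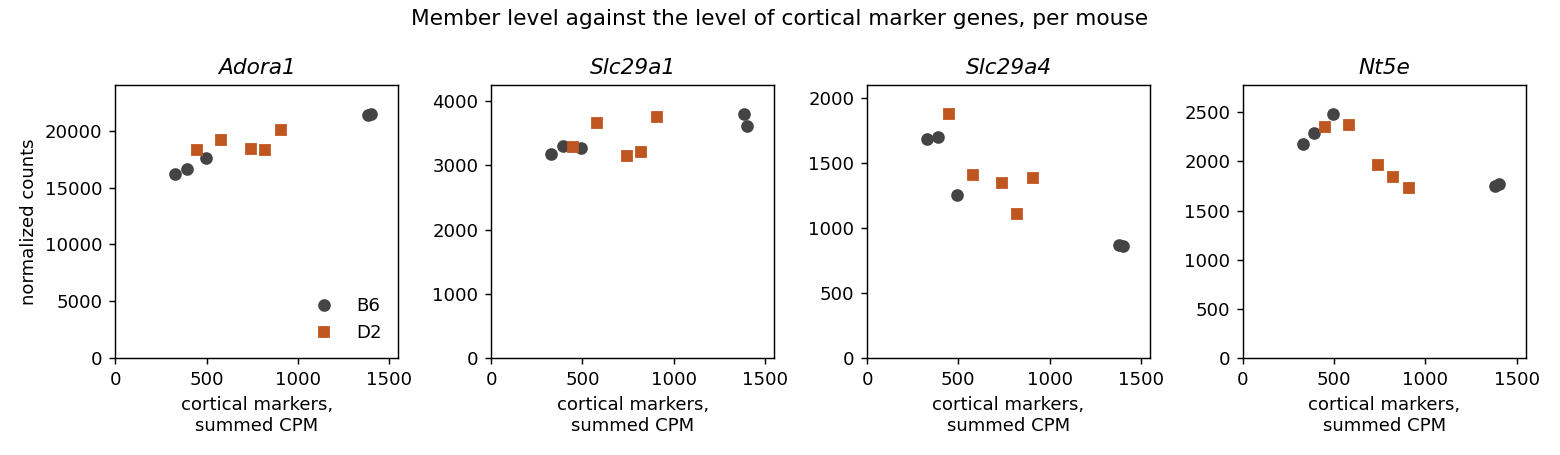
Normalized counts of Adora1, Slc29a1, Slc29a4 and Nt5e (vertical axes, linear) against the summed CPM of 8 cortical marker genes (horizontal axes), 1 point per mouse, with circles for B6 and squares for D2. The 2 circles at the right, at 1383 and 1403 CPM, are B6 replicates 3 and 5, which are highest for Adora1 and lowest for Slc29a4.

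Adora2b encodes the low-affinity adenosine receptor that couples to the stimulatory G protein and raises cAMP. It (ENSMUSG00000018500) spans 62139804 to 62157279 on the forward strand of chromosome 11. Its B6 values were 251.8, 205, 213, 203 and 219 normalized counts, and its D2 values were 297, 247, 268, 258 and 262. Of the B6 mice, 1 reached into the D2 range, with replicate 1 just above D2 replicate 2. The mean rose from 218 ± 19.8 to 266 ± 18.9 (SD, n = 5), a log2 fold change of 0.29 (standard error 0.0885, adjusted p = 0.0405, edgeR). This call was close to the threshold. When each mouse was left out in turn the value stayed between 0.24 and 0.34, but it passed in only 2 of the 10 fits, those without B6 replicate 1 and without D2 replicate 2. Without B6 replicates 3 and 5 it was 0.27 (adjusted p = 0.116, edgeR).

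The equilibrative nucleoside transporters carry adenosine along its gradient. Slc29a1 encodes the transporter that ethanol inhibits in cultured cells, Slc29a2 a related carrier of nucleosides and nucleobases, and Slc29a4 a plasma membrane transporter that also takes up monoamines. None of the 3 genes passed the test between strains over all 10 mice.

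Slc29a1 (ENSMUSG00000023942, chromosome 17, 45896125 to 45910733, reverse strand) had between 3180 and 3798 normalized counts in B6 and between 3149 and 3754 in D2. Its means, 3436 ± 260 and 3413 ± 277 (SD, n = 5), differed by -0.0098 on the log2 scale. The 95% interval ran from -0.15 to 0.13, so larger differences lay outside it (adjusted p = 0.950, edgeR). B6 replicates 3 and 5 again held the 2 highest B6 values, and without them the estimate was 0.067 (adjusted p = 0.522, edgeR).

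Slc29a2 (ENSMUSG00000024891, chromosome 19, 5073562 to 5082385, forward strand) had the smallest coefficient of variation of the members in each strain except for Adora1 in D2, with 3.08% in B6 and 5.81% in D2. The B6 values lay between 1494 and 1596 normalized counts and the D2 values between 1501 and 1726. D2 was higher by 0.074 (95% interval -0.033 to 0.18), which did not pass (adjusted p = 0.369, edgeR). Without B6 replicates 3 and 5 the estimate was 0.056 (adjusted p = 0.592, edgeR). The log2 ratio of Slc29a1 to Slc29a2 within a mouse, in counts per kilobase and thus free of the scaling between libraries, averaged 0.588 ± 0.136 (SD, n = 5) for B6 and 0.505 ± 0.160 for D2, with overlapping ranges.

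Slc29a4 (ENSMUSG00000050822, chromosome 5, 142678095 to 142710802, forward strand) varied most among the mice, with a coefficient of variation of 32.3% in B6. The B6 mice had 1686, 1702, 867, 1258 and 873 normalized counts, and the D2 mice 1877, 1113, 1388, 1350 and 1412. Both values under 900 were those of B6 replicates 3 and 5. Over all mice the log2 fold change was 0.16 with a wide interval, from -0.28 to 0.60 (adjusted p = 0.674, edgeR).

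The estimate for Slc29a4 turned with the fit. Without B6 replicates 3 and 5 it was -0.12 (95% interval -0.43 to 0.19, adjusted p = 0.653, edgeR). With the cortical marker level as a covariate it was 0.35 and passed (95% interval 0.19 to 0.50, adjusted p = 0.0023, edgeR). No direction between the strains is given for this gene.

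**Figure D3:**
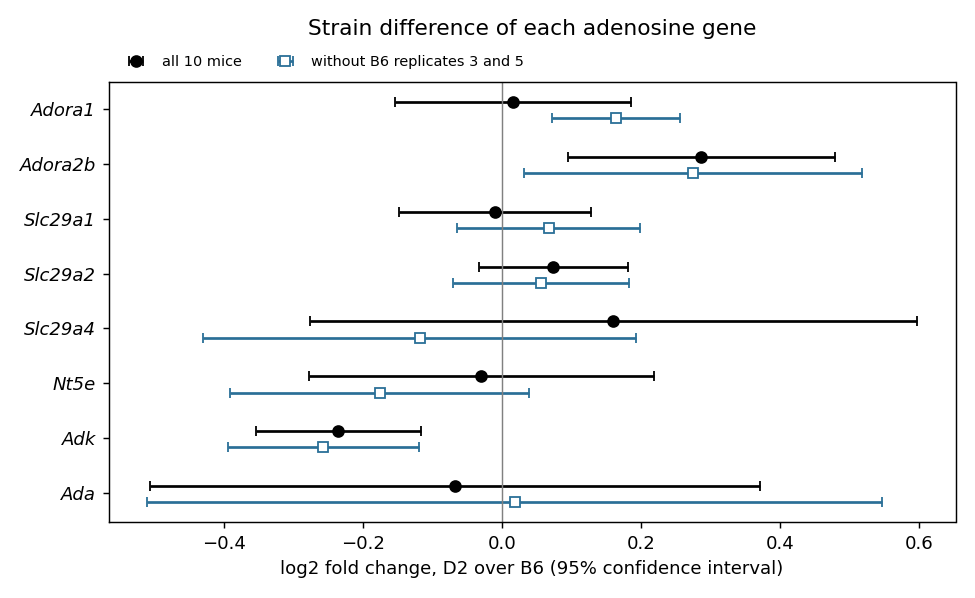
Log2 fold change of D2 over B6 (horizontal axis) for each member, with 95% confidence intervals from edgeR. Filled circles use all 10 mice and open squares leave out B6 replicates 3 and 5. Adk is at -0.24 and -0.26, whereas Adora1 moves from 0.016 to 0.16 and Slc29a4 from 0.16 to -0.12.

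Nt5e encodes the ecto-5'-nucleotidase, which forms adenosine from AMP at the cell surface. It (ENSMUSG00000032420) occupies 88209089 to 88254146 on the forward strand of chromosome 9. Its B6 values were 2179, 2289, 1767, 2478 and 1753 normalized counts and its D2 values 2350, 1843, 1729, 1967 and 2366, so the strains overlapped over most of their range. The log2 fold change was -0.030 (95% interval -0.28 to 0.22, adjusted p = 0.905, edgeR). B6 replicates 3 and 5 were the lowest B6 mice, and D2 replicates 2 and 3, which had the highest cortical marker levels of their strain with 821 and 909 CPM, were the lowest D2 mice. Without the 2 B6 libraries the value was -0.18 (95% interval -0.39 to 0.039), which did not pass either (adjusted p = 0.267, edgeR).

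Adk encodes adenosine kinase, which phosphorylates adenosine to AMP and is the main route of adenosine removal in adult brain, where it is found mostly in astrocytes. It (ENSMUSG00000039197) spans 21102618 to 21499916 on the forward strand of chromosome 14. The B6 mice had 4191, 4623, 4149, 4116 and 4166 normalized counts. The D2 mice had 3844, 3330, 3848, 3294 and 3734. Every D2 mouse was below every B6 mouse. The mean fell from 4249 ± 211 to 3610 ± 276 (SD, n = 5), to 0.850 times the B6 level, a log2 fold change of -0.24 (standard error 0.0544, 95% interval -0.35 to -0.12, adjusted p = 0.0085, edgeR).

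The lower Adk level in D2 passed at an adjusted p of 0.05 in all 21 other fits, which covered other scalings, filters, DESeq2, covariates, the block and left-out mice, with log2 fold changes from -0.27 to -0.20 and adjusted p from 0.0014 to 0.030. Without B6 replicates 3 and 5 it was -0.26 (adjusted p = 0.012, edgeR). By size, Adk ranked 4245 among the 5478 called genes and Adora2b 3872, so neither was among the larger strain differences.

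Because Adk is mostly astrocytic, the 8 astrocyte markers are given beside it. Their summed level, to which Slc1a2 contributed most, was 3905 to 4394 CPM in B6 and 4011 to 4266 CPM in D2, and none was at 0. Of them, 1 was higher in D2 (Gja1, a gap junction protein, 0.20 on the log2 scale) and 3 were lower (Aldoc -0.37, Aldh1l1 -0.24 and Aqp4 -0.19). The 4 others did not pass. All 8 markers averaged at least 100 counts, and 23.8% of all genes at that level were called. In bulk tissue, fewer cells of a type and less RNA per cell cannot be told apart. With the mean level of these markers as a covariate, the log2 fold change of Adk was -0.20 (adjusted p = 0.030, edgeR). Because the markers differed between the strains in both directions, their mean cannot stand for astrocyte content. The part of astrocyte content in the Adk difference was not tested.

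Ada encodes adenosine deaminase, which converts adenosine to inosine. The gene (ENSMUSG00000017697, chromosome 2, 163565705 to 163592159, reverse strand) was scarcely expressed, with 32 to 66 raw counts per B6 library and 44 to 60 per D2 library. Its normalized means of 51.7 ± 14.2 and 49.3 ± 6.51 (SD, n = 5) did not differ beyond the spread (log2 fold change -0.067, adjusted p = 0.873, edgeR). The interval, from -0.51 to 0.37, included a change of the size seen for Adk, so this fit could not exclude such a change. Without B6 replicates 3 and 5 the log2 fold change of Ada was 0.018 (adjusted p = 0.973, edgeR). In every mouse the length-corrected level of Adk was at least 4.72 log2 units above that of Ada. Within a mouse, the log2 ratio of Adk to Ada averaged 5.30 ± 0.408 for B6 and 5.09 ± 0.281 for D2, and that of Nt5e to Adk -0.653 ± 0.215 and -0.443 ± 0.198 (SD, n = 5). Both ratios overlapped between the strains.

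Some members share their position with other genes. The Illumina kit named in the methods keeps strand, but the strand setting of the counting is not given, and without it reads from overlapping genes on opposite strands cannot be told apart. Ada overlaps 2376 bp of Pkig, whose mean count was 6916, and the log2 fold change of Pkig, -0.12, did not pass (adjusted p = 0.051, edgeR). Slc29a4 shares 442 bp with Tnrc18, with a mean count of 19285. Adora1 overlaps Mybph, which had a mean of only 36.4 counts, and Slc29a1 and Slc29a2 overlap long noncoding RNAs with means of at most 105.8 counts. No tested gene overlaps Adora2b, Nt5e or Adk.

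The nearest gene to Adk is Ap3m1, a subunit of an adaptor complex of vesicle traffic, which starts 42 bp away on the opposite strand. Its log2 fold change was 0.078 (adjusted p = 0.082, edgeR), and that of Zswim7, 762 bp from Adora2b on the opposite strand, was 0.16 (adjusted p = 0.077, edgeR). Neither neighbour passed. Among the nearest genes on either side of the members, Chi3l1 beside Adora1 was higher in D2 (0.80, adjusted p = 1.7e-06), B4gat1 beside Slc29a2 was lower (-1.46, adjusted p = 2.6e-04), Capn11 beside Slc29a1 was lower (-1.56, adjusted p = 0.049) and Ccn5 beside Ada was higher (2.17, adjusted p = 0.015, all edgeR). Of these, Ccn5, B4gat1 and Capn11 were poorly expressed, with means of 9.1, 43.8 and 88.0 counts. Within 500 kb of the members, 49 of 232 tested neighbours were called, or 21.1%, beside 18.3% of all genes. Among those averaging at least 100 counts, 37 of 149 neighbours were called, or 24.8%, beside 23.8% of all genes at that level.

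Mice with a high Adk count relative to their own strain also had high counts of Cltb (a clathrin light chain), Mrpl43 (a mitochondrial ribosomal protein) and Dok7. Pearson's r of the strain-centred log2 CPM was 0.971, 0.957 and 0.948 over the 10 mice, and 0.978, 0.963 and 0.956 without B6 replicates 3 and 5. For Adora2b the most similar were Flrt2, Ecpas and Itch, with r of 0.945, 0.940 and 0.932. These are the highest of 15331 values each and are given as a description. The mice also differed in library depth and cortical marker level, whose part in these correlations was not tested. Of the 6 genes, Flrt2, which encodes a membrane adhesion protein, also differed between the strains, by 0.32 (adjusted p = 9.3e-04, edgeR).

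The other genes of the adenosine pathway were listed by step, and all 37 were in the table, 27 of them averaging at least 100 counts. In D2, 2 were higher and 4 lower, and 31 did not pass, so that 6 of 37 were called beside 18.3% of all genes. The median log2 fold change of the 37 genes was -0.015.

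Among the 8 enzymes that break down extracellular ATP and ADP, 2 were lower in D2 and none was higher. Of all genes, 9.83% were called lower and 8.50% higher in D2. Only 5 of the 8 enzymes averaged at least 100 counts, a level at which 23.8% of all genes were called. Entpd2, an ectonucleotidase that mainly turns ATP into ADP, had 582 to 699 normalized counts in B6 and 357 to 480 in D2, without overlap. Its log2 fold change was -0.68 (standard error 0.0880, adjusted p = 1.2e-04, edgeR). Entpd3, which acts on ATP and ADP, had 2824 to 4056 counts in B6 and 2179 to 2616 in D2. It fell by 0.45 (standard error 0.0898, adjusted p = 0.0034, edgeR), and both held without B6 replicates 3 and 5, with -0.75 and -0.57. Entpd1 had a log2 fold change of -0.14 (adjusted p = 0.327) and Alpl, the tissue-nonspecific alkaline phosphatase, one of 0.22 (adjusted p = 0.087).

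Of the 11 genes of purine salvage, deamination and degradation, 2 were higher and 1 was lower, beside 8.50% and 9.83% of all genes. Adal, an adenosine deaminase-like enzyme of modified nucleotides, had 1919 to 2183 normalized counts in B6 and 2857 to 3146 in D2, a rise of 0.54 (standard error 0.0461, adjusted p = 2.6e-06, edgeR). Pnp, the purine nucleoside phosphorylase that splits inosine, rose by 0.56 (adjusted p = 1.4e-04, edgeR), from 471 to 586 counts in B6 to 761 to 795 in D2. Its paralog Pnp2 fell by 3.45 (adjusted p = 9.7e-09, edgeR), from 230 to 307 counts in B6 to 18.4 to 31.3 in D2. The annotated coding transcripts of the pair share stretches: 22.9% of the 75-base words of Pnp2 also occur in Pnp, so reads can be split between them and these values are uncertain. The other 8, among them Hprt1, Aprt and Ampd2, did not pass.

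The list of S-adenosylhomocysteine hydrolysis, a source of adenosine inside the cell, held the hydrolase gene Ahcy and the related Ahcyl1 and Ahcyl2, whose products are known as regulators of ion channels and transporters and not as hydrolases. Ahcyl1 was lower in D2, with a log2 fold change of -0.13 (adjusted p = 0.048, edgeR) and 41311 to 45916 normalized counts in B6 and 37648 to 41696 in D2. This small change stood close to the threshold. Without B6 replicates 3 and 5 it had the same size, -0.13, and did not pass (adjusted p = 0.0735, edgeR). Neither Ahcy, with a log2 fold change of 0.087, nor Ahcyl2, with -0.063, passed. The 3 ATP release genes Panx1 (0.087), Panx2 (-0.033) and Slc17a9 (-0.066) did not pass. Nor did any of the 7 intracellular nucleotidases or of the 5 other receptors and nucleoside transporters, where Adora3 (log2 fold change 0.51, mean of 65.8 counts) had an adjusted p of 0.054 from edgeR.

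**Figure D4:**
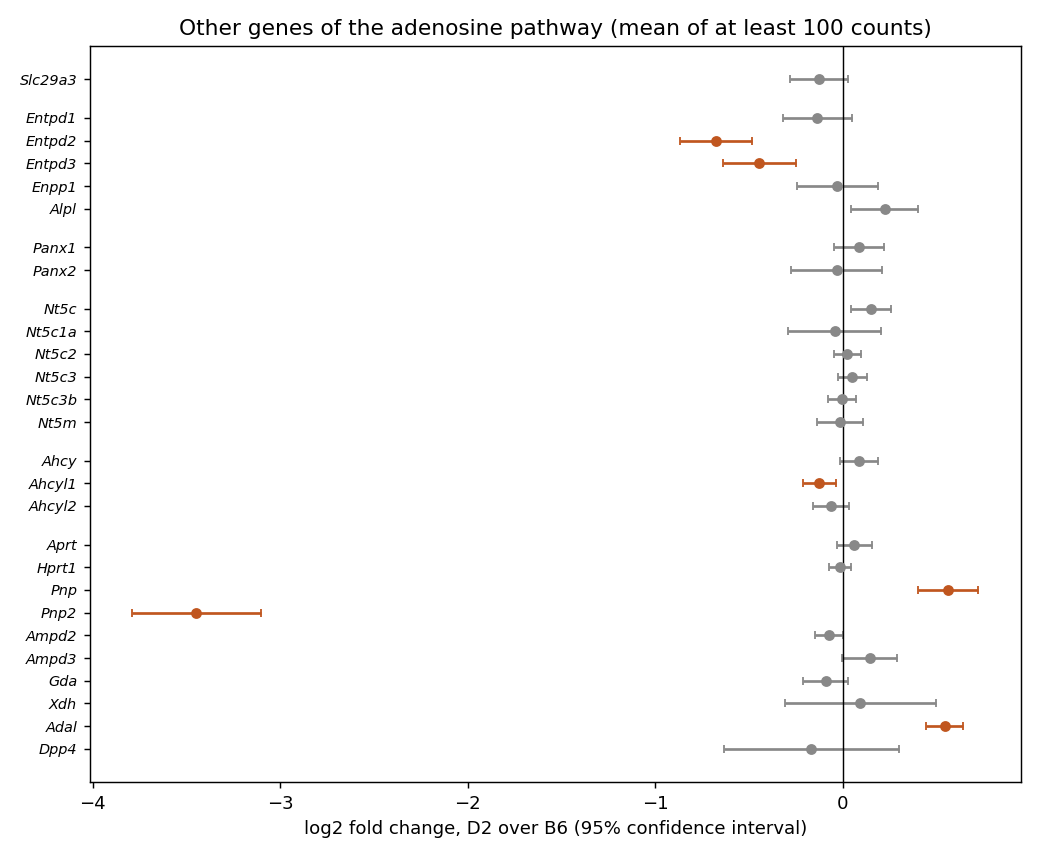
Log2 fold change of D2 over B6 with 95% confidence intervals (edgeR, 5 mice per strain) for the 27 other pathway genes that averaged at least 100 counts, grouped by step. Orange genes passed an adjusted p of 0.05 and grey ones did not. Pnp2 lies at -3.45 and Pnp at 0.56, while Entpd2 and Entpd3 lie at -0.68 and -0.45.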

How the data were processed

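NAc RNA of 5 B6 and 5 D2 mice was sequenced as poly-A libraries (150 bp paired-end). The authors trimmed reads with fastp 0.22.0, aligned both strains with STAR 2.7.10b to the B6 genome (GRCm39, Ensembl release 108), used SAMtools 1.6 and counted with featureCounts. The deposited values are raw read counts by gene. Genes with a median of 0 were dropped by the authors. Reads with D2 alleles can align less well to the B6 genome. The summary columns of the table were not used.

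Counts were fitted with edgeR 4.0.16 in R 4.3.3 (TMM, quasi-likelihood test, two-sided, Benjamini-Hochberg adjustment over 29883 genes, threshold 0.05). Standard errors were derived from the fold change and its F statistic. Symbols, positions and exon lengths came from GENCODE M39 for 29519 genes. Normalized counts are counts divided by the TMM-scaled library size, times its mean. Tables and figures used Python 3.11.15, pandas 2.3.3 and matplotlib 3.10.9.

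Members, pathway lists and marker lists (from general knowledge, for striatal and cortical projection neurons, astrocytes, oligodendrocytes, microglia, endothelium, choroid plexus and ependyma, meninges, and blood) were chosen with earlier results of these data known. Named genes were all members, in each pathway list the called gene with the largest change and a mean of at least 100 counts, lists of 3 genes in full, the nearest genes of each member and the 3 most correlated genes of each called member. The other called pathway genes, and those given without a call, were named after their values were seen. Alternatives were DESeq2 1.42.0, other scalings, filters, covariates, a replicate block, a stricter threshold and each mouse left out. The fit without B6 replicates 3 and 5 was added after the data were seen.

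The test was tested on simulated data of the strain comparison with 29883 genes, of which 200 were changed, at a fixed dispersion. At simulated log2 changes of 1, 0.5 and 0.25 it found 62 of 66, 50 of 67 and 4 of 67 genes, with 9 false calls. In the real data 18.3% of genes were called, and the adjustment depends on the share of changed genes. The shares found therefore do not measure the sensitivity of the test in the real data.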

Additional observations from a re-analysis of the deposited data

Results flagged for a closer look

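Among 42 groups of 5 mice (members, their ratios, marker sums and depth), 2 had a mouse far from the other 4 by Dixon's criterion, and chance gives about 1 in 20. For Adk in B6, replicate 2 had 4623 normalized counts, where the others lay between 4116 and 4191. Without this mouse Adk was still lower in D2, by -0.20 on the log2 scale (adjusted p = 0.022, edgeR). For the meninges and fibroblast markers in D2, replicate 5 had a summed level of 54.7 CPM, where the others lay between 31.3 and 37.0 CPM.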

How the results depend on the processing

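At the threshold of 0.05 Adk was called in all 21 other fits and Slc29a2 in none. Adora2b kept its direction in all 21 other fits and was called in 10 of them. In the fit of all mice at a threshold of 0.01, 3415 genes and 1 member (Adk) were called. With the astrocyte marker level as a covariate 1 member was called, and with the cortical marker level 12 of 37 pathway genes were, in a fit that called 7802 of all 29883 genes and 3 members. With each mouse left out in turn, 4636 to 5676 genes, 1 to 2 members and 5 to 7 pathway genes were called, and the log2 fold change lay between -0.031 and 0.066 for Adora1, -0.054 and 0.021 for Slc29a1, -0.094 and 0.038 for Nt5e and -0.21 and 0.054 for Ada. These 4 genes, which were not called in the fits named here, also changed sign elsewhere: Slc29a1 under total counts (0.023), Adora1 (-0.022) and Nt5e (0.039) with the cortical marker covariate, and Adora1 (-0.012), Nt5e (0.054) and Ada (0.019) with the astrocyte one. Without B6 replicates 3 and 5, Slc29a1 (0.067), Slc29a4 (-0.12) and Ada (0.018) did. The cause was not tested. The replicate numbers share no stated batch, and the correlation of same-numbered mice ran from -0.43 to 0.38, with 2 of 10 mice closest to their own number. With the replicate number as a block, 4731 genes and 1 member (Adk) were called, and Adora2b had an adjusted p of 0.050. Leaving out B6 replicates 3 and 5 gave 5745 genes, of which 4313 were shared with the fit of all mice (78.7% of its calls). Ada had few counts and a coefficient of variation of 27.5% in B6, and its interval was wide.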

Other observations

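Leaving out B6 replicates 3 and 5 brought 4 further pathway genes past the threshold (edgeR, Benjamini-Hochberg adjusted over all genes). In that fit 9 of 37 pathway genes were called, beside 19.2% of all genes. In D2, Panx2, a pannexin channel of neurons, was then higher by 0.19 (adjusted p = 0.047) and Nt5c, a cytosolic nucleotidase, by 0.17 (adjusted p = 0.041). Gda, the guanine deaminase, was lower, with a log2 fold change of -0.17 (adjusted p = 0.015), as was Ampd2, which deaminates AMP (-0.11, adjusted p = 0.034). Over all 10 mice, none of the 4 passed. In the subset, most D2 mice were above the remaining B6 mice in summed cortical marker level, and its part in these calls was not tested.

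Other marker lists also differed in part between the strains. Of the 10 genes of striatal projection neurons, 5 were lower in D2 and none was higher, with a median log2 fold change of -0.20. Of the 7 oligodendrocyte genes, 4 were lower, and their summed level was 4415 to 6367 CPM in B6, where replicates 3 and 5 were highest, and 3335 to 4879 CPM in D2. Of the 6 microglia genes 1 was higher, and of the 6 endothelial genes none passed. In the choroid plexus and ependyma list 1 of 8 genes was lower, in the meninges list 1 of 6 was higher, and in the blood list 3 of 5 were lower. Of all genes, 8.50% were called higher and 9.83% lower in D2. The choroid plexus call was Folr1, with a mean of only 2.7 counts. In the blood list Hba-a2 had a log2 fold change of -5.47, whereas its paralog Hba-a1, at 0.085, did not pass. The part of these marker lists in the levels of the members was not tested.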
